A study of Mus musculus with 16 samples.

Results

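The comparison set 4 arrays of *Camkk2*-/- bone marrow-derived macrophages (BMDM) against 4 arrays of WT BMDM, both differentiated for 5 days in tumor-conditioned medium (TCM). It used 8 of the 16 mouse arrays of the series, and every probe set that was no control and carried exactly 1 gene symbol entered it. These were 19572 of 28846 probe sets, which represented 19505 genes. L929-conditioned medium, which supplies CSF1 to drive macrophage growth, made up 30% in every culture, controls included. TCM was medium from E0771 cells, a mouse mammary tumor line, and the other 8 arrays held the same genotypes in regular medium (RM). The labels give TCM as 20% of the culture medium and the methods as 25%. WT cells were *Camkk2* +/+, and the knockout cells lacked the gene from the germline onward, so that marrow progenitors lacked it before culture. Marrow came from female mice of 10 to 12 weeks, 16 per genotype for 4 replicates, so that animals were pooled in a way that is not stated. The methods cite earlier work for these mice, and it is not clear whether a backcross to C57BL/6 that they describe covers the constitutive knockout or whether controls were littermates. Inherited differences between the 2 groups of mice other than the deletion itself cannot be told apart from it. The methods describe nearly pure cultures by macrophage surface markers.

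CaMKK2 is a kinase that is activated by calcium and calmodulin and phosphorylates CaMK1, CaMK4 and the energy sensor AMPK. Macrophages answer interferons through JAK kinases and transcription factors, some of which bind interferon-stimulated response elements in promoters. NRF2 is a transcription factor that holds up glutathione synthesis and thioredoxin reduction through antioxidant response elements. The comparison addresses which transcripts of macrophages under tumor-derived signals depend on *Camkk2*.

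Values were log2 signals that the authors had normalized between arrays, so that a difference of 1 is a 2-fold difference. The 23 antigenomic probe sets, which have no target in mouse, gave a median of 5.37, called background here, and 10684 of the 19505 genes had a mean above it. Means of single antigenomic probe sets ran from 2.48 to 6.82, and negative control probe sets had array medians of 5.963 to 6.332. A signal in that range, although above background as defined here, may still be nonspecific. Array medians over genes were 5.774 to 5.909. Genes were tested with limma over all 16 arrays, and "higher", "lower" and "called" below stand for a Benjamini-Hochberg adjusted p under 0.05 over all genes. In simulated arrays, the test found 69 of 100 genes changed by 1 and 97 of 100 changed by 2. Their noise was independent between genes, so recovery under deviations shared across an array, as seen below in 2 WT arrays, was not tested. Whether replicates came from separate cultures is given only by the word replicate, so the p-values measure the spread between these arrays.

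WT TCM replicates 1 and 3 stood apart from the other arrays. Their values deviated from the group mean by an SD of 0.325 and 0.355 over genes, against 0.220 to 0.301 in the other 14 arrays. In a principal component analysis of the 8 TCM arrays, the first component (38.6% of the variance) separated the genotypes, with WT at −53.7 to −10.8 and *Camkk2*-/- at 15.8 to 35.8. The second (19.2%) set WT replicate 1, at 45.5, against WT replicate 3, at −28.0. WT replicate 3 was the lowest WT array for interferon-stimulated, monocyte and neutrophil genes, and counts are therefore also given without it.

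*Camkk2* itself checked the labels. Its signal in WT TCM-BMDM was 9.61, 9.59, 9.14 and 9.68 in replicates 1 to 4, and in *Camkk2*-/- TCM-BMDM 7.94, 7.29, 8.15 and 7.24. The groups did not overlap, and the *Camkk2*-/- arrays stayed above background. The difference was −1.85 (standard error 0.28, adjusted p = 0.000387), a 3.61-fold lower signal. The sources do not say which exons the probe set reads. Of 22 measured genes of the CaMKK, CaMK and AMPK kinases, *Camkk2* was the only one called. *Camk1*, which encodes a substrate of CaMKK2, had a difference of −0.45 (adjusted p = 0.171), and the AMPK catalytic subunit gene *Prkaa1* had 0.28 (adjusted p = 0.545).

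In TCM, 526 genes were higher in *Camkk2*-/- BMDM, which is 2.7% of those tested, and 350 were lower, which is 1.79%. The median difference was 1.04 among the higher and −0.904 among the lower genes, and −0.018 over all genes. Differences past 1 were seen for 277 higher and 140 lower genes, and past 2 for 54 and 14. All 4 *Camkk2*-/- arrays lay above all 4 WT arrays for 5.6% of all genes and below them for 5.15%, and 817 of the 876 called genes had no overlap. Without WT replicate 3, 327 genes were higher (1.68%) and 266 lower (1.36%), and 320 and 246 of these were among the calls from all arrays. The higher count also fell to 344 and 338 without *Camkk2*-/- replicate 2 or 3, and the lower count to 216 without *Camkk2*-/- replicate 3. In all fits that left out 1 array, 277 genes stayed higher and 179 stayed lower.

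**Figure D1:**
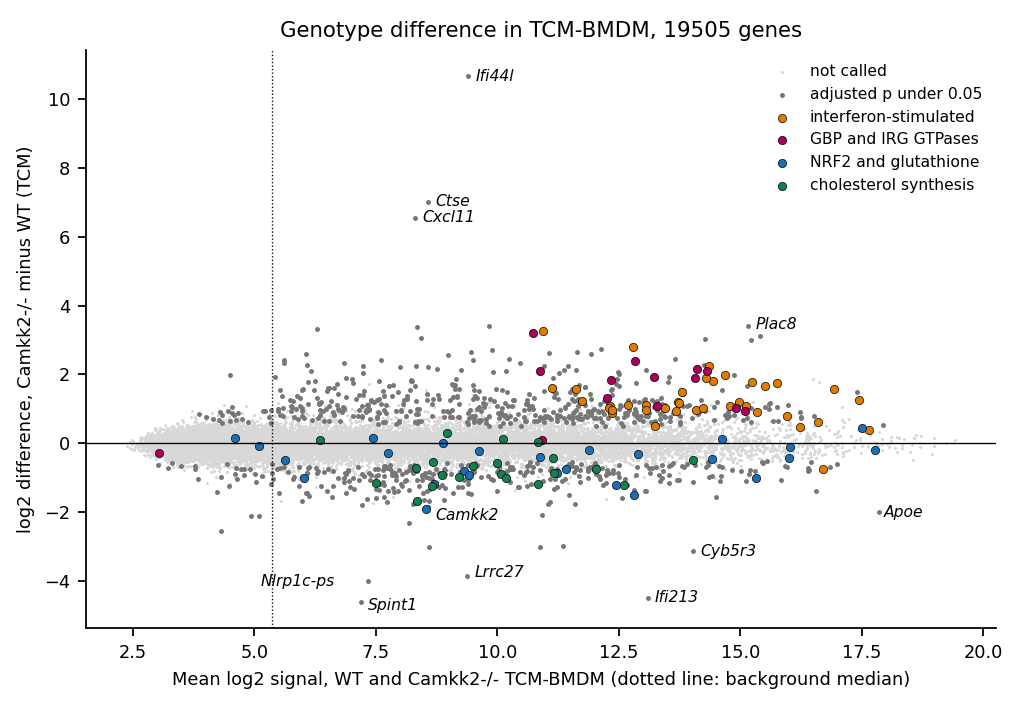
Difference between *Camkk2*-/- and WT TCM-BMDM (log2, y axis) against mean log2 signal (x axis) for 19505 genes, with 4 gene lists in color and the background median dotted. Interferon-stimulated genes and the GTPases lie above 0 except for *Bst2* and *Irgc1*, with medians of 1.11 and 1.86, and NRF2 and cholesterol genes mostly below, with medians of −0.41 and −0.76.

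Each list count below is to be read beside the shares over all genes, 2.7% higher and 1.79% lower, and a list with few calls rests on those single genes. Lists can share members, so the same call may be counted in more than 1 list. Of the gene lists read, interferon-stimulated genes had the most members among the higher genes. Of 38 measured, 26 (68.4%) were higher and 0 lower, with a median difference of 1.11, against −0.018 over all genes. The 4 *Camkk2*-/- arrays lay above the 4 WT arrays for 35 of the 38, against 5.6% of all genes. *Isg15* encodes a ubiquitin-like protein that is joined to other proteins in virus-infected cells. Its signal was 10.91, 11.22, 10.20 and 10.92 in WT and 12.72, 12.63, 12.53 and 11.75 in *Camkk2*-/- TCM-BMDM. Every *Camkk2*-/- array exceeded every WT array, with replicate 4 the lowest, and the difference was 1.59 (standard error 0.26, adjusted p = 0.000766). In RM the *Isg15* difference was 0.14 (adjusted p = 0.968), and over the list 2 of 38 were higher there, at a median of 0.32. The interaction of genotype and medium, given further below, did not call *Isg15*, so its values do not show that the media differ.

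Antiviral effectors in this list and related genes outside it were higher too. *Oasl1*, an oligoadenylate synthetase-like gene, had signals of 10.80, 9.55, 7.47 and 9.42 in WT and 12.70, 12.69, 13.16 and 11.77 in *Camkk2*-/- cells, a difference of 3.27 (standard error 0.59, adjusted p = 0.00189). WT replicate 3 was lowest, and without it the difference was 2.65 (adjusted p = 0.00647). The ADP-ribosyltransferase genes *Parp9*, *Parp10*, *Parp12* and *Parp14* were higher by 1.23, 1.42, 1.09 and 0.93, the last not without WT replicate 3. *Usp18*, which removes ISG15 from proteins, was higher by 1.90 (adjusted p = 0.00666), and the exonuclease gene *Isg20* by 2.25 (adjusted p = 0.0116). Outside the list, *Ifit1bl2* and *Ifit1bl1*, of the family of IFIT genes, were higher by 3.42 (adjusted p = 0.000279) and 3.00 (adjusted p = 0.000497). The GRCm38.p6 annotation lists *Mx1* and *Mx2*, dynamin-like GTPases, as transcribed pseudogenes in the reference strain, and both were higher, by 1.99 and 2.79.

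The count of higher interferon-stimulated genes depended on single arrays more than their direction did. It was 14 of 38 without WT replicate 3, where the median was 0.88, and 15, 16 and 17 without *Camkk2*-/- replicate 1, 2 or 3. Relative to the mean of all 16 arrays, the list stood at −0.56 in WT replicate 3, at 0.46 to 0.61 in the other WT arrays, and at 1.26 to 1.63 in *Camkk2*-/- arrays. *Ifit1* (1.80, adjusted p = 0.0624), *Rsad2* (1.66, adjusted p = 0.0708) and *Irf7* (1.06, adjusted p = 0.126) did not pass. *Bst2*, also a marker of plasmacytoid dendritic cells, was the only member with a lower mean in *Camkk2*-/- cells, at −0.75 (adjusted p = 0.703).

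To show what is written in the promoters of genes that were higher, RefSeq windows of 250 bases before the start were searched on both strands for GAAA repeated after a gap of any 2 bases, the core of the interferon-stimulated response element. The pattern was found in 3.47% of 15691 windows, in 12.3% of 407 windows of higher genes, and in 2.46% of 285 windows of lower genes. In the interferon-stimulated list, 9 of 28 windows (32.1%) held it, so most did not. Stretches of *Isg15* (chr4:156200850-156200921, minus strand) and *Ifit1bl2* (chr19:34640760-34640838, minus strand), in GRCm38.p6 and in the sense of the gene, are given with matches in capitals.
*Isg15*: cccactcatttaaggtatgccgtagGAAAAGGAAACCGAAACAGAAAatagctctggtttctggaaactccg
*Ifit1bl2*: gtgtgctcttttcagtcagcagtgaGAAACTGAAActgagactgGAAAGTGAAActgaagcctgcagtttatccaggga
The *Isg15* stretch holds 3 overlapping matches and the *Ifit1bl2* stretch 2 separate ones. A match of letters is a description and not a site.

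Guanylate-binding proteins (GBP) and immunity-related GTPases (IRG) are interferon-induced enzymes that attack the vacuoles of intracellular microbes. Of 14 measured, 12 (85.7%) were higher and 0 lower, at a median of 1.86. *Gbp8* had signals of 9.56, 9.66, 9.47 and 10.58 in WT and 11.86, 11.66, 12.16 and 12 in *Camkk2*-/- TCM-BMDM. The groups were separated by more than 1, with WT replicate 4 the highest WT array, and the difference was 2.10 (standard error 0.25, adjusted p = 3.92e-05). *Gbp2* was 14.09, 14.01, 11.66 and 13.33 in WT against 15.42, 15.71, 15.26 and 15.03, a difference of 2.09 (standard error 0.38, adjusted p = 0.00196). Here WT replicate 3 was low, and without it the difference was 1.55 (adjusted p = 0.00155). *Iigp1* was higher by 3.21, *Gbp4* by 2.40, *Tgtp2* by 2.16, *Gbp3* by 1.92, *Gbp7* by 1.89 and *Igtp* by 1.83. The 2 members that were not called were *Gm4951* (0.09) and *Irgc1* (−0.28), the latter below background in both groups. Without WT replicate 3, 9 of the 14 were higher, at a median of 1.49. In RM 1 was higher, *Iigp1*, at 1.75 (adjusted p = 0.0242). Near-identical copies within this family can share probes, so single members are uncertain.

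All 7 GBP and IRG genes with a RefSeq window held the response element core. Stretches are given to show its surroundings in *Gbp2* (chr3:142620579-142620638, plus strand), *Igtp* (chr11:58199497-58199555, plus strand) and *Irgm2* (chr11:58214888-58214947, plus strand). In *Gbp2* the match reads in the opposite direction.
*Gbp2*: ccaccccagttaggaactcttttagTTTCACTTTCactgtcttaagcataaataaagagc
*Igtp*: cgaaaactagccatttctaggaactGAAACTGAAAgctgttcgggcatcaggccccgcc
*Irgm2*: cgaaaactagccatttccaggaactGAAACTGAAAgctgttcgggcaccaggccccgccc
Over 59 bases, the *Igtp* and *Irgm2* stretches were identical at 57. The differences of these neighbors were nevertheless unequal in size, 1.83 (standard error 0.34) for *Igtp* and 1.09 (standard error 0.30, adjusted p = 0.0444) for *Irgm2*, a call that was lost without WT replicate 3 (adjusted p = 0.162). The difference between the 2 genes was not tested.

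**Figure D2:**
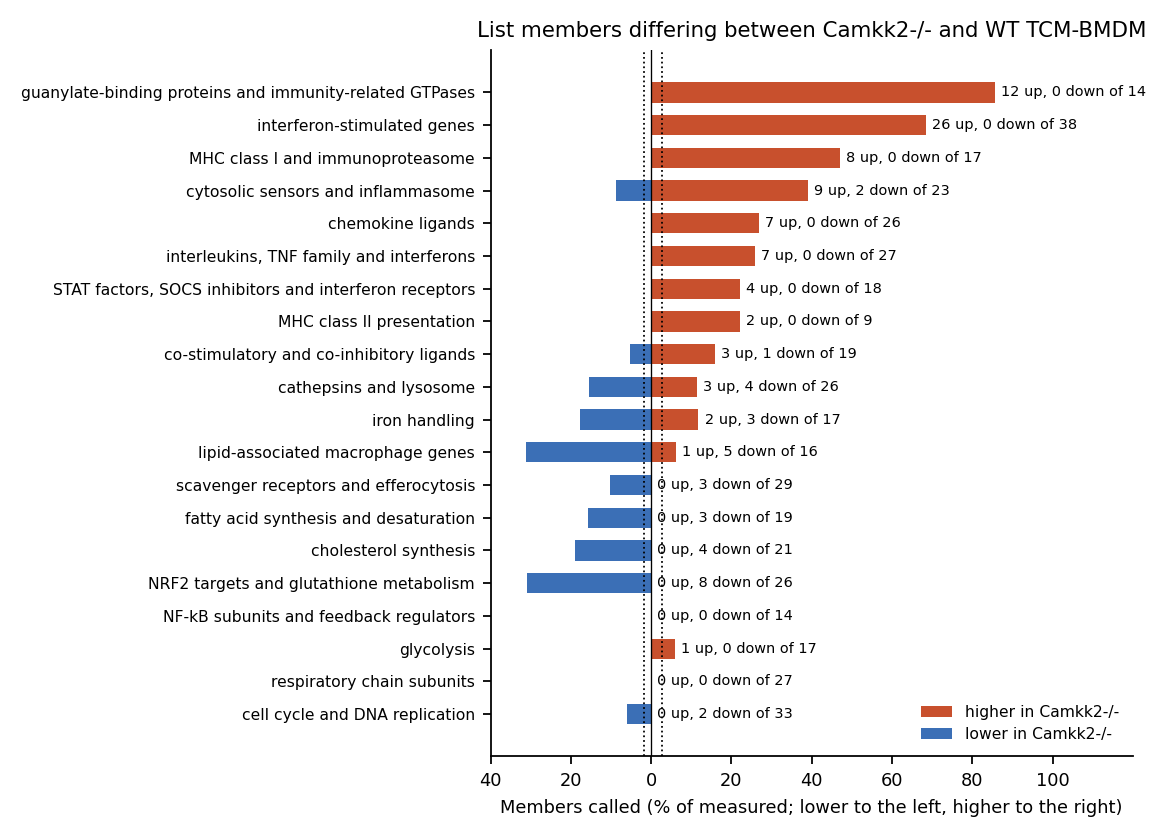
Share of measured list members called between *Camkk2*-/- and WT TCM-BMDM (%, x axis, higher to the right and lower to the left), with counts printed and the shares over all genes, 2.7% and 1.79%, dotted. The interferon lists reach 85.7% and 68.4% higher, and the lipid, NRF2 and cholesterol lists are mainly to the left.

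Genes that load MHC class I with peptide were higher in the same cells. Of 17 measured, 8 were higher and 0 lower, with a median of 0.72, and all 17 had a positive difference. *Psmb9*, a proteolytic subunit of the immunoproteasome, was 12.24, 12.24, 11.92 and 12.41 in WT and 13.52, 13.57, 13.44 and 13.14 in *Camkk2*-/- TCM-BMDM, 1.22 higher (standard error 0.18, adjusted p = 0.000277). Replicates of each group lay close together, and the groups were apart. The peptide transporter genes *Tap1* and *Tap2* were higher by 1.11 (adjusted p = 0.00184) and 0.95 (adjusted p = 0.00402). Among heavy chains, the nonclassical *H2-T22* and *H2-Q4* were higher by 1.78 (adjusted p = 0.000366) and 1.33 (adjusted p = 0.00206), while the classical *H2-K1* (0.41, adjusted p = 0.139) and *H2-D1* (0.59, adjusted p = 0.0569) did not pass. Heavy chain genes share sequence, and their signals may be mixed. *B2m*, the common light chain, was 19.33 to 19.42 in WT and 19.44 to 19.48 in *Camkk2*-/- cells, near the top of the scale of the arrays. Without WT replicate 3 or without *Camkk2*-/- replicate 1, 2 or 3, 5 of the 17 were called.

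Of 9 MHC class II presentation genes, 2 were higher, the peptide-loading modifiers *H2-Ob* (1.10, adjusted p = 0.00239) and *H2-DMb2* (1.27, adjusted p = 0.0204). The number was 5 without WT replicate 1, 4 without *Camkk2*-/- RM replicate 4, and 1 without WT replicate 3 or *Camkk2*-/- replicate 1, 2 or 3. *H2-Ab1*, a chain of the class II molecule itself, was 15.67, 15.35, 14.83 and 15.38 in WT and 15.67, 15.95, 16.26 and 15.99 in *Camkk2*-/- cells. The highest WT and the lowest *Camkk2*-/- array were at the same value, and the difference of 0.66 (standard error 0.20, adjusted p = 0.0756) did not pass. The list median was 0.71 in TCM and 0.74 in RM.

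Among 19 co-stimulatory and co-inhibitory ligands, 3 were higher and 1 lower. *Cd86*, a ligand of CD28 on T cells, was 11.07, 11.41, 9.96 and 11.12 in WT and 12.10 to 12.31 in all 4 *Camkk2*-/- arrays, a difference of 1.30 (standard error 0.24, adjusted p = 0.00223). *Cd40* was 8.96, 9.72, 8.23 and 8.51 against 10.56, 10.38, 10.43 and 9.27. Its groups overlapped through *Camkk2*-/- replicate 4, and the difference of 1.30 (standard error 0.33, adjusted p = 0.0222) did not pass without WT replicate 3 or 4 or *Camkk2*-/- replicate 1, 2 or 3. *Tnfsf4*, the OX40 ligand, was higher by 0.95 (adjusted p = 0.0396) from a WT mean below background, a call lost in 8 of the 16 fits that left out 1 array. *Cd276*, of the B7 family, was lower, at 9.29, 8.38, 8.31 and 8.28 in WT and 7.39, 7.14, 6.90 and 7.19 in *Camkk2*-/- cells (−1.41, standard error 0.21, adjusted p = 0.000366). *Cd80*, the other CD28 ligand, had a difference of 0.84 (adjusted p = 0.113).

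Signal transducers of the interferon pathway were higher in part. Of 18 STAT, SOCS and interferon receptor genes, 4 were higher. *Socs1*, which blocks JAK kinases, was 6.75, 6.13, 5.56 and 6.39 in WT and 8.90, 8.59, 8.00 and 7.51 in *Camkk2*-/- cells, higher by 2.04 (standard error 0.30, adjusted p = 0.000329). The groups were apart, and *Camkk2*-/- replicate 4 was again the lowest of its group. The WT values of *Socs1* lay within the range of the antigenomic probe sets, which limits the size of its difference. *Socs2* (1.40), *Stat2* (1.14) and *Jak2* (1.03, adjusted p = 0.0111) were the others. Of 8 interferon regulatory factors, *Irf1* alone was called, at 1.09 (standard error 0.18, adjusted p = 0.000843), and all 8 had positive differences. Of 14 NF-kB subunits and feedback regulators, 0 were called, at a median of 0.22, with 4 at an unadjusted limma p under 0.05 and 0 to 2 higher in fits without 1 array.

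Of 23 cytosolic sensors and inflammasome genes, 9 were higher and 2 lower. *Nod1*, a sensor of bacterial cell wall fragments, was higher by 1.38 (standard error 0.23, adjusted p = 0.00104), and *Cgas*, which senses DNA, by 1.25 (standard error 0.26, adjusted p = 0.00615). The RNA sensor genes *Ddx58*, *Ifih1* and *Dhx58* were higher by 1.17, 1.07 and 1.02, and the inflammasome genes *Naip5* and *Casp4* by 0.74 and 0.90. Calls already counted in the interferon-stimulated list include *Ddx58*, *Ifih1* and *Dhx58*. Without WT replicate 3, 2 of the 23 were higher, as also without *Camkk2*-/- replicate 1 or 2, and 3 without *Camkk2*-/- replicate 3. The 2 lower genes went against the rest of the list. *Ifi213*, of the interferon-inducible p200 family, was 16.06, 15.75, 13.72 and 15.84 in WT and 10.63, 10.93, 11.54 and 10.30 in *Camkk2*-/- cells, a difference of −4.49 that was −5.84 in RM. *Nlrp1a*, an inflammasome sensor, was 5.05 to 6.07 in WT and 2.5 to 3.34 in *Camkk2*-/- cells, below background in the latter, and its RM difference was −2.45. Its paralog *Nlrp1b* had 0.04 (adjusted p = 0.956).

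Among 22 Toll-like receptor and adaptor genes, 2 were higher, both for nucleic acids. *Tlr9* was 11.38, 11.22, 10.31 and 11.07 in WT and 12.63, 12.71, 12.98 and 12.18 in *Camkk2*-/- TCM-BMDM, with a difference of 1.63 (standard error 0.24, adjusted p = 0.00037). *Tlr3* was higher by 1.26 (standard error 0.23, adjusted p = 0.00222). The groups did not overlap for either gene, and both calls held without any 1 array. Without WT replicate 1, 4 of the 22 were higher. Plasmacytoid dendritic cells also carry *Tlr9*, and 4 of 7 of their marker genes were higher in the same arrays.

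Chemokine ligand genes were higher for 7 of 26 members, with 0 lower. *Cxcl11*, a ligand of CXCR3 on T cells, was 6.27, 5.51, 3.65 and 4.69 in WT and 11.74, 12.04, 12.13 and 10.45 in *Camkk2*-/- cells. WT values straddled background, so the difference of 6.56 (standard error 0.43, adjusted p = 9.35e-09) is read from background signal. *Cxcl10*, which binds the same receptor, was 13.90, 14.08, 9.70 and 12.01 against 15.27, 15.31, 15.02 and 13.93. WT arrays spanned more than 4 units and overlapped *Camkk2*-/- replicate 4, and the difference was 2.46 (standard error 0.62, adjusted p = 0.024). That call was lost in a fit to the 8 TCM arrays, without WT replicate 4, and without *Camkk2*-/- replicate 1, 2 or 3. *Cxcl9*, the third CXCR3 ligand, had −0.05 (adjusted p = 0.964).

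*Ccl5*, which recruits T cells and monocytes, was 14.45, 14, 12.16 and 14.83 in WT and 16.47, 17.30, 17.64 and 16.45 in *Camkk2*-/- cells. The groups did not overlap, and the difference was 3.11 (standard error 0.55, adjusted p = 0.00157). The monocyte attractants *Ccl12* and *Ccl7* were higher by 2.03 (adjusted p = 0.00364) and 1.33 (adjusted p = 0.0439), *Ccl4* by 0.77 (adjusted p = 0.0271) and *Cxcl14* by 1.36 (adjusted p = 0.0288) from a WT mean below background. The list count was 6 without WT replicate 3, 3 without WT replicate 4 or *Camkk2*-/- replicate 1 or 2, and 4 without *Camkk2*-/- replicate 3. The calls of *Ccl7*, *Cxcl14* and *Ccl4* were lost in 9, 6 and 5 of the 16 fits that left out 1 array.

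Among 27 interleukins, TNF family ligands and interferons, 7 were higher and 0 lower. *Il18*, a cytokine that induces IFN-γ, was 10.82, 10.90, 10.87 and 10.99 in WT and 12.37, 12.53, 12.37 and 11.97 in *Camkk2*-/- TCM-BMDM, and WT replicate 3 was no different from the other WT arrays. The difference was 1.42 (standard error 0.17, adjusted p = 5.17e-05). *Il18bp*, which encodes the protein that binds and blocks IL-18, was higher too, by 1.75 (standard error 0.28, adjusted p = 0.000672). *Il15* was 10.66, 10.99, 9.95 and 10.63 against 13.05, 13.06, 12.79 and 11.86, a difference of 2.13 (standard error 0.31, adjusted p = 0.000277). The TNF family ligands *Tnfsf10* (TRAIL) and *Tnfsf15* (TL1A) were higher by 2.33 (adjusted p = 0.00467) and 2.09 (adjusted p = 0.000486), and *Il27* by 1.44 (adjusted p = 0.000912). *Il6* had 0.98 (adjusted p = 0.0243), with overlapping groups, a WT mean below background and no call without WT replicate 3 (adjusted p = 0.0969). In RM, the difference of *Il27* was −0.02 and that of *Tnfsf15* 0.07. Neither gene was called in the interaction of genotype and medium.

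**Figure D3:**
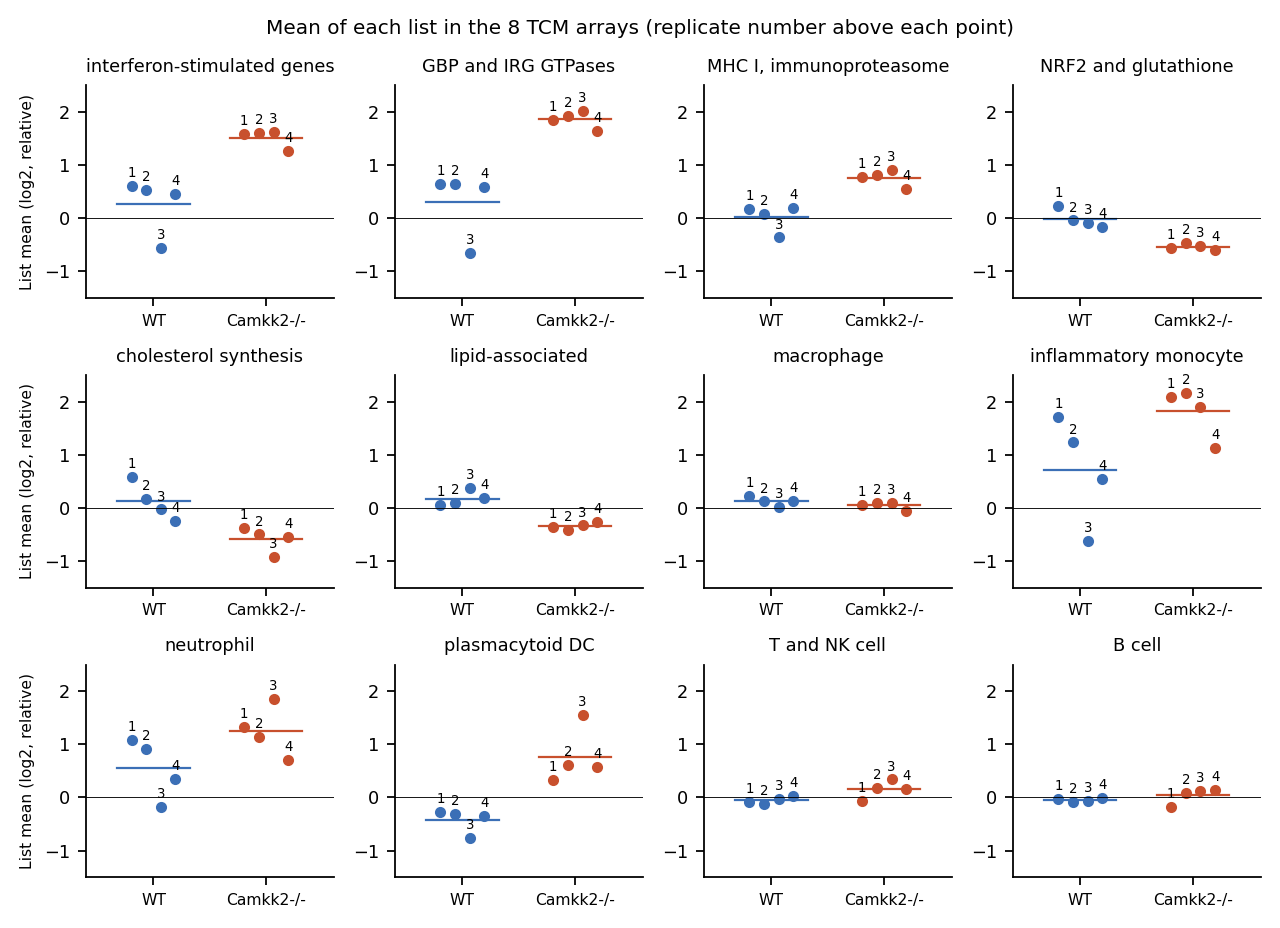
Mean of 12 gene lists in each of the 8 TCM arrays (log2, with each gene set to 0 at its 16-array mean), points numbered by replicate and lines at group means. WT replicate 3 lies at −0.56 for interferon-stimulated genes, against 0.46 to 0.61 in the other WT arrays and 1.26 to 1.63 in *Camkk2*-/- arrays, and the macrophage list stays between −0.05 and 0.23.

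NRF2 target and glutathione genes were lower. Of 26 measured, 8 (30.8%) were lower and 0 higher, against 1.79% lower over all genes, and the list median was −0.41. *Txnrd1*, cytosolic thioredoxin reductase, was 13.87, 13.73, 13.49 and 13.17 in WT and 11.89, 12.44, 12.18 and 11.74 in *Camkk2*-/- cells. The groups lay apart, and the difference was −1.5 (standard error 0.20, adjusted p = 0.000148), a 2.83-fold lower signal. *Gclm*, the modifier subunit of the enzyme that starts glutathione synthesis, was 13.42, 12.96, 12.93 and 12.86 against 11.69, 12.17, 11.99 and 11.47, a difference of −1.21 (standard error 0.17, adjusted p = 0.000178). The catalytic subunit *Gclc* had −0.80 (adjusted p = 0.00462), with WT at 9.46 to 9.96 and *Camkk2*-/- at 8.63 to 9.02.

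The secreted peroxidase gene *Gpx3* was 10.56, 9.54, 8.98 and 8.86 in WT and 7.12, 7.65, 7.26 and 8.24 in *Camkk2*-/- TCM-BMDM (−1.92, standard error 0.30, adjusted p = 0.000528). WT replicate 1 was the highest array. The glutathione transferases *Gstm2*, *Gstm1* and *Gsto1* had differences of −1.2, −1.0 and −0.92, and the quinone reductase *Nqo1* had −1.01 (adjusted p = 0.016). The calls of *Gsto1* and *Nqo1* were lost without *Camkk2*-/- replicate 3. *Hmox1* (−0.42, adjusted p = 0.191), *Slc7a11* (−0.39, adjusted p = 0.656) and *Srxn1* (−0.86, adjusted p = 0.0992) did not pass. In RM, 0 of the 26 were called in either direction and 4 had an unadjusted limma p under 0.05, with a median of 0.02. The count rested less on WT replicate 3 than those of the interferon lists, with 9 lower without it.

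Of these 8 lower genes and 18 others, 22 had a RefSeq window, and 5 (22.7%) held TGACNNNGC, the core of the antioxidant response element, on either strand. The share was 12.2% of all windows, 15.5% of those of higher genes and 16.8% of those of lower genes, so it was similar in both directions. The matches in *Txnrd1* (chr10:82859089-82859147, plus strand) and *Gclm* (chr3:122245398-122245456, plus strand) are shown because these were the lower genes of the list with the smallest adjusted p. In both the core reads in the opposite direction, as capitals. Among the other lower genes of the list, *Gpx3*, *Gstm1*, *Gclc*, *Gsto1* and *Nqo1* had no match or no window.
*Txnrd1*: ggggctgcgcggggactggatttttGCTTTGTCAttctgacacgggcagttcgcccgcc
*Gclm*: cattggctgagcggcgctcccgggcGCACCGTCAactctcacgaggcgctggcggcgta

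Cholesterol synthesis genes were lower for 4 of 21 members and higher for 0, at a median of −0.76. The 4 *Camkk2*-/- arrays lay below all WT arrays for 9 of the 21, against 5.15% of all genes. *Hmgcs1*, which makes the substrate of HMG-CoA reductase, was 13.69, 13.39, 13.20 and 12.61 in WT and 12.30, 12.03, 11.54 and 12.18 in *Camkk2*-/- cells. The groups did not overlap, and the difference was −1.21 (standard error 0.26, adjusted p = 0.00711). *Hsd17b7* was lower, at −1.69 (adjusted p = 0.00125). The list mean was highest in WT replicate 1, at 0.59, and 2 genes were called without that array or without *Camkk2*-/- replicate 3, while 8 were called without WT replicate 4. A sterol response element core, TCACNCCAC, was in the window of 1 of 17 members, *Hmgcs1* (chr13:119690189-119690247, plus strand), and in 1.22% of all windows.
*Hmgcs1*: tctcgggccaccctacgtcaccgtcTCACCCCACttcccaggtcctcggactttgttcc
Of 19 fatty acid synthesis genes, *Elovl5* (−1.16, adjusted p = 0.000463), *Fasn* (−1.01, adjusted p = 0.0212) and *Mid1ip1* (−0.73, adjusted p = 0.0413) were lower. *Elovl5*, an elongase of polyunsaturated fatty acids, was the only one of the 3 still called without WT replicate 3 (adjusted p = 0.000336).

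*Apoe*, the main apolipoprotein that macrophages secrete, was lower, at −2.01 (standard error 0.28, adjusted p = 0.000194). It was 18.62, 18.75, 19.09 and 19.01 in WT and 16.22, 16.90, 17.55 and 16.74 in *Camkk2*-/- cells, so that WT values were near the top of the scale. It was lower in RM too, at −1.33 (adjusted p = 0.0226). Of 13 LXR target and efflux genes, *Apoe* was the only one lower and the lysosomal sterol carrier *Npc2* the only one higher (0.66, adjusted p = 0.0121). The transporter gene *Abca1* had −0.18 (adjusted p = 0.761).

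Of 16 genes of lipid-associated macrophages, 5 were lower and 1 higher, and 15 had a negative difference. Besides *Apoe* these were *Itgax* (−1.47, adjusted p = 0.00476), which encodes CD11c, *Cd9* (−0.82, adjusted p = 0.00704), *Lpl* (−0.70, adjusted p = 0.0144) and the lysosomal lipase gene *Lipa*. *Lipa* was 16.22 to 16.29 in WT and 15.47 to 15.71 in *Camkk2*-/- cells, a small difference of −0.66 (standard error 0.14, adjusted p = 0.00607) with tight replicates. The protease gene *Ctsl* went the other way (0.54, adjusted p = 0.0439), a call lost in 13 of the 16 fits that left out 1 array. *Trem2* (−0.20, adjusted p = 0.605) and *Gpnmb* (−0.30, adjusted p = 0.317) did not pass.

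Of 29 scavenger receptor and efferocytosis genes, 3 were lower and 0 higher, or 1 higher without WT replicate 1. *Gas6* links phosphatidylserine to the kinases MERTK and AXL. It was 11.17, 11.75, 12.73 and 12.11 in WT and 9.99, 10.03, 10.12 and 10.74 in *Camkk2*-/- TCM-BMDM, without overlap, a difference of −1.72 (standard error 0.25, adjusted p = 0.000254). *Mfge8*, which links phosphatidylserine to integrins, was 16.74, 17.06, 17.64 and 17.56 against 15.86, 16.07, 15.72 and 15.84 (−1.38, standard error 0.22, adjusted p = 0.000663). For both, WT replicate 3 was the highest array. The integrin gene *Itgb5* had −0.70 (adjusted p = 0.0413) with overlapping groups, and its call was lost in 8 of the 16 fits that left out 1 array. Among receptors, *Mertk* had 0.74 (adjusted p = 0.346) and *Axl* 1.02 (adjusted p = 0.234).

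Lysosomal genes had calls in both directions, with 3 of 26 higher and 4 lower. A negative difference was seen for 20 of the 26, at a list median of −0.11. The proton pump subunits *Atp6v0d2* (−1.07, adjusted p = 0.000568) and *Atp6v1a* (−0.67, adjusted p = 0.0142), the glucuronidase *Gusb* (−1.08, adjusted p = 0.000618) and *Lipa* were lower. *Gusb* was 14.02 to 14.56 in WT and 13.10 to 13.21 in *Camkk2*-/- cells. *Ctse*, *Npc2* and *Ctsl* were higher, and 1 of the 26 was higher without *Camkk2*-/- replicate 1. *Ctse* was higher from a WT mean below background, and the *Ctsl* call was lost in most fits that left out 1 array.

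Of 17 iron genes, the importers *Tfrc* (−1.28, adjusted p = 0.0148) and *Slc11a2* (−0.76, adjusted p = 0.0211) and the exporter *Slc40a1* (−1.08, adjusted p = 0.0221) were lower. The reductase gene *Steap3* (0.87, adjusted p = 0.00242) and the ferroxidase *Cp* (1.15, adjusted p = 0.0444) were higher. Of these 5, *Steap3* alone was called in all fits that left out 1 array, and the calls of *Tfrc* and *Cp* were among those lost without WT replicate 3.

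The genes commonly used to type macrophages as classically or alternatively activated split. *Nos2*, inducible nitric oxide synthase, was 9.26, 8.51, 5.79 and 7.52 in WT and 10.03, 9.79, 9.0 and 8.42 in *Camkk2*-/- cells. The groups overlapped, and the difference of 1.54 (standard error 0.52, adjusted p = 0.113) did not pass. *Arg1* was 4.82 to 5.42 in WT, around background, and 5.79 to 6.58 in *Camkk2*-/- cells (1.03, adjusted p = 0.0663). *Mrc1*, the mannose receptor, was 15.06, 15.68, 16.26 and 15.71 against 14.55, 14.15, 14.52 and 15.08, and was lower, at −1.10 (standard error 0.25, adjusted p = 0.0117). *Camkk2*-/- replicate 4 overlapped with WT replicate 1, and the call was lost without WT replicate 3 (adjusted p = 0.0529) or *Camkk2*-/- replicate 2. *Chil3* (0.73, adjusted p = 0.737) and *Retnla* (−0.19, adjusted p = 0.804, below background in all groups) did not pass. Of 22 alternative activation genes 2 were higher, *Cdh1* and *Socs2*, and 2 lower, *Egr2* and *Mrc1*. *Cdh1*, which encodes E-cadherin, was 6.27, 5.90, 5.19 and 5.36 in WT and 7.70, 8.36, 8.59 and 7.45 in *Camkk2*-/- cells (2.34, standard error 0.28, adjusted p = 5.41e-05). Its WT values lay within the range of the antigenomic probe sets, so the size is read from nonspecific signal. Of 15 classical activation genes 4 were higher and 0 lower. The higher genes were *Cd86*, *Cd40*, *Cxcl10* and *Il6*, each already counted in a list above. All *Camkk2*-/- arrays lay above all WT arrays for 1 of the 15, against 5.6% of all genes. The count was 2 without WT replicate 3 or 4 or *Camkk2*-/- replicate 1, and 1 without *Camkk2*-/- replicate 2 or 3 and in a fit to the 8 TCM arrays.

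Of 23 matrix, TGF-β and PDGF genes, 3 were lower and 1 higher. *Pdgfa* (−1.11, adjusted p = 0.00609) and *Pdgfb* (−0.89, adjusted p = 0.0118), which encode the 2 chains of classical PDGF, and the TGF-β receptor gene *Tgfbr1* (−0.80, adjusted p = 0.0134) were lower, the last not without WT replicate 3 or *Camkk2*-/- replicate 2 or 3. *Pdgfrb*, which encodes a receptor for PDGF, was higher, at 6.00, 5.65, 4.74 and 5.23 in WT and 6.65, 7.22, 6.26 and 5.83 in *Camkk2*-/- cells (1.09, adjusted p = 0.028), and in RM (1.45, adjusted p = 0.0113). Its groups overlapped in TCM, and the call was lost without WT replicate 3 or 4 or *Camkk2*-/- replicate 1 or 2. The lower count of the list was 2 without WT replicate 3 or *Camkk2*-/- replicate 2 and 1 without *Camkk2*-/- replicate 3. Of 19 matrix metalloproteinase and inhibitor genes, 2 were higher and 2 lower. *Plaur*, the urokinase receptor, was lower, at −1.28 (standard error 0.19, adjusted p = 0.000375), with WT at 11.52 to 12.18 and *Camkk2*-/- at 10.44 to 10.80, and its RM difference, also called, was −2.05. The collagenase gene *Mmp13* was higher by 1.27 (adjusted p = 0.00177) and *Mmp25* by 2.26 (adjusted p = 0.000157), whereas the inhibitor *Timp2* was lower, at −0.62 (adjusted p = 0.012). Of 21 Fc receptor and complement genes, 2 were higher and 1 lower, with 4 higher without *Camkk2*-/- replicate 4. *Cfb*, factor B of the alternative complement pathway, was higher by 2.63 (standard error 0.46, adjusted p = 0.00127), and the neonatal Fc receptor gene *Fcgrt* by 1.27 (adjusted p = 0.00263). *Fcgr3*, an activating receptor for IgG, was lower, at 17.19 to 17.38 in WT and 16.56 to 16.90 in *Camkk2*-/- cells (−0.60, adjusted p = 0.0108). Among immediate early genes, *Egr1* (1.30) and *Nr4a3* (1.57) were higher and *Egr2* (−1.22) lower, 3 of 22, and 4 were higher without WT replicate 1.

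Housekeeping lists had 0 to 3 calls each. Of 27 respiratory chain subunits 0 were called and 2 had an unadjusted limma p under 0.05, and of 17 glycolysis genes 1, *Pfkfb3* (1.02, adjusted p = 0.00239), which makes an activator of the pathway. *Pfkfb3* was the only glycolysis gene with a positive difference. The other 16 had negative differences that were not called, and the list median was −0.21. Of 33 cell cycle genes 2 were lower, *Mcm6* (−0.83) and *Pcna* (−0.68), and 0 without WT replicate 1 or 3 or *Camkk2*-/- replicate 1 or 2. Of 19 cytosolic ribosomal protein genes 3 were lower (15.8%, against 1.79% over all genes) and 18 had a negative difference, at a median of −0.27. The 3 were *Rpl10a*, *Rpl3* and *Rplp0*, at −0.96, −0.81 and −0.73, with 1 of 19 lower without *Camkk2*-/- replicate 3.

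Marker genes of other cell types were read in the same arrays. Of 14 macrophage markers 0 were higher and 2 lower, *Bhlhe41* (−1.35, adjusted p = 0.000289) and *Adgre1*, an adhesion receptor used to mark macrophages (−0.58, adjusted p = 0.0292, lost in 6 of the 16 fits that left out 1 array). *Adgre1* was 15.56 to 15.95 in WT and 14.97 to 15.39 in *Camkk2*-/- cells, high above background in both. Of 20 neutrophil markers 4 were higher, *Stfa3* (1.66), *Stfa2* (1.64), *Csf3r* and *Cxcr2*, and 2 of the 20 without WT replicate 2 or 3 or *Camkk2*-/- replicate 1, 2 or 3. The list mean was −0.17 to 1.09 in WT and 0.70 to 1.85 in *Camkk2*-/- arrays, which overlapped, and the abundant *S100a8* (0.59, adjusted p = 0.526) and *S100a9* (0.80, adjusted p = 0.302) did not pass. Of 9 inflammatory monocyte markers 1 was higher, *Plac8*, at 13.52, 13.82, 12.41 and 14.04 in WT and 16.97, 17.00, 17.19 and 16.27 in *Camkk2*-/- cells (3.41, standard error 0.40, adjusted p = 4.19e-05). *Ly6c2* (1.79, adjusted p = 0.0554) did not pass, and the list mean was −0.63 to 1.71 against 1.12 to 2.16. The count was 4 without *Camkk2*-/- replicate 4, 3 without WT replicate 1 or WT RM replicate 3, and 2 without *Camkk2*-/- RM replicate 4. The list median was 1.1 in TCM and 1.42 in RM, where 2 of the 9 were higher.

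Of 7 plasmacytoid dendritic cell markers 4 were higher, and their groups did not overlap. A positive difference was seen for 6 of the 7, and *Bst2* went the other way, at −0.75, without a call. *Ccr9*, a chemokine receptor, was 5.52, 4.21, 3.72 and 5.08 in WT, below background on average, and 7.48, 8.26, 9.15 and 6.88 in *Camkk2*-/- cells. The lectin gene *Siglech* was 7.23, 7.39, 6.62 and 6.34 against 8.19, 8.41, 9.34 and 7.68, a difference of 1.51 (standard error 0.34, adjusted p = 0.0113) that was not called without *Camkk2*-/- replicate 3. *Ly6d* and the transcription factor gene *Spib* were higher by 1.56 (adjusted p = 0.00892) and 1.38 (adjusted p = 0.00214). *Camkk2*-/- replicate 3 was the highest array for all 4, and the list mean was −0.76 to −0.28 in WT and 0.33 to 1.55 in *Camkk2*-/- arrays. T and NK cell markers gave 0 calls of 11 and stem and progenitor markers 0 of 8, with 3 and 1 at an unadjusted limma p under 0.05. Conventional dendritic cell markers gave 0 higher and 2 lower of 11, *Itgax* and *Batf3*. All 11 mast cell, basophil and eosinophil markers had positive differences, with list means of −0.09 to 0.31 in WT and 0.38 to 1.53 in *Camkk2*-/- arrays. Of these *Mcpt8*, a basophil protease, was higher (1.38, adjusted p = 0.0413), a call lost in 7 of the 16 fits that left out 1 array. Of 9 fibroblast and stroma markers 2 were higher, *Pdgfrb* and the matrix proteoglycan gene *Dcn* (0.93, adjusted p = 0.00585), the latter below background in all groups. Of 9 B cell markers the adaptor gene *Blnk* was lower (−1.17, adjusted p = 0.00239), and 2 were higher without *Camkk2*-/- replicate 1. Of 8 erythroid and megakaryocyte markers *Tfrc* was lower, and of 9 epithelial markers *Cdh1* was higher. In bulk RNA, more cells of a type and more RNA per cell cannot be told apart, and the part of these cells in the interferon, chemokine and receptor results was not tested.

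The largest single differences outside these lists held in all fits that left out 1 array. *Chil1*, a chitinase-like gene, was 7.51, 7.61, 5.11 and 6.4 in WT and 9.81, 10.95, 10.54 and 8.80 in *Camkk2*-/- cells (3.37, standard error 0.46, adjusted p = 0.000158). *Rasgrp1*, a Ras activator, was higher by 3.07 (standard error 0.41, adjusted p = 0.000139), and by 2.84 in RM. *Slfn4*, of the Schlafen family, was higher by 3.04 (standard error 0.50, adjusted p = 0.000787). *Trim30b*, of the TRIM family, was higher by 2.71 (adjusted p = 4.66e-05).

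Among lower genes, *Cyb5r3*, NADH-cytochrome b5 reductase, was 15.86, 15.73, 15.17 and 15.62 in WT and 12.79, 12.35, 12.12 and 12.57 in *Camkk2*-/- cells, a difference of −3.14 (standard error 0.26, adjusted p = 2.78e-07). The groups were more than 2 units apart. *Lrrc27* was 10.87 to 11.71 against 7.02 to 7.81 (−3.86, standard error 0.26, adjusted p = 1.08e-08). *Wfs1*, an endoplasmic reticulum membrane protein, and *Vsig8* were lower, at −3.01 and −2.33, as was the ubiquitin ligase gene *Nedd4l*, at −2.08. *Cyb5r3*, *Lrrc27*, *Wfs1*, *Vsig8* and *Nedd4l* were also lower in RM, at −2.4, −2.59, −1.48, −1.57 and −1.5, respectively.

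Some differences were between a clear signal and none. *Ifi44l*, an interferon-induced gene, was 3.82, 4.11, 4.55 and 3.77 in WT and 14.64 to 14.85 in *Camkk2*-/- TCM-BMDM. Cathepsin E (*Ctse*) was 4.14 to 5.94 in WT and 11.66 to 12.70 in *Camkk2*-/- cells. *Spint1*, a protease inhibitor, was 10.67, 8.65, 9.34 and 9.34 in WT and 4.29, 4.59, 5.27 and 5.37 in *Camkk2*-/- cells, and the pseudogene *Nlrp1c-ps* 9.0 to 9.8 against 5.10 to 5.53. In each case the low group lay around or below background, so the size is bounded by background. *Ifi44l*, *Ctse*, *Spint1* and *Nlrp1c-ps* were called in RM in the same direction, at 9.30, 6.44, −2.99 and −4.39. Smaller differences of this kind were those of *Cd7* (2.61) and *Klk1b22* (2.43), and of *Galnt9* (−2.12), the prostaglandin-degrading enzyme gene *Hpgd* (−2.12) and *Dusp23* (−1.67). The call of *Hpgd*, the only one among 19 eicosanoid genes, was lost without WT replicate 1 and without each of the 4 *Camkk2*-/- replicates. In all, 51 higher genes had a WT mean below background and 42 lower genes a *Camkk2*-/- mean below it.

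**Figure D4:**
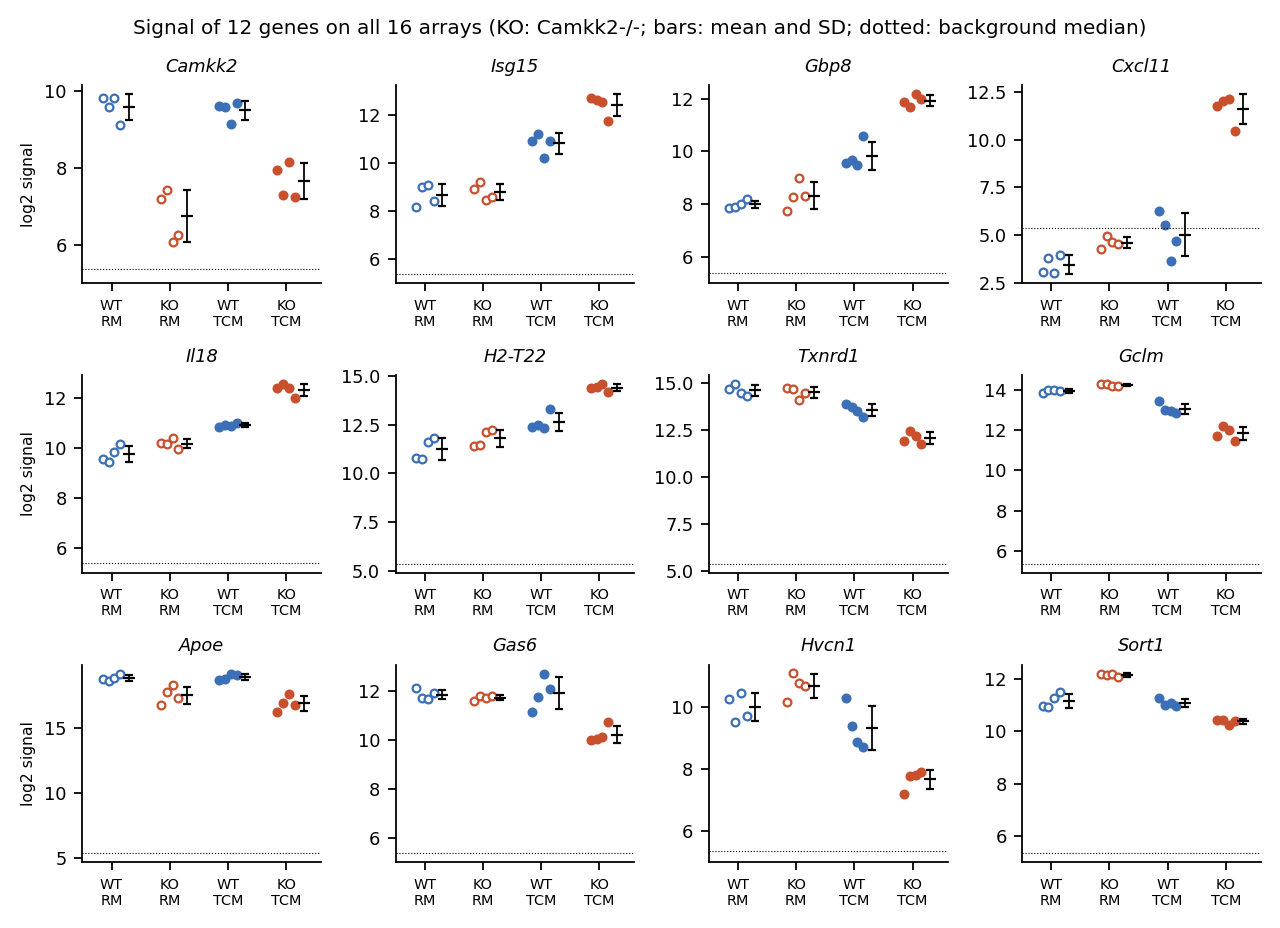
Log2 signal of 12 genes on all 16 arrays (y axis, scale set per gene), open points RM and filled points TCM, blue WT and red *Camkk2*-/-, with mean and SD and the background median dotted. *Isg15* differs by 1.59 between genotypes in TCM and 0.14 in RM, *Txnrd1* by −1.5 and −0.09, and *Sort1* by −0.70 and 0.98. Of *Isg15*, *Txnrd1* and *Sort1*, the interaction of genotype and medium called *Sort1* alone.

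In RM, 87 genes were higher (0.446%) and 57 lower (0.292%) in *Camkk2*-/- BMDM, and these arrays share none with the TCM comparison. Whether RM and TCM cultures came from the same marrow is not stated, so the 2 comparisons may not come from independent animals. Same-numbered RM and TCM arrays were treated as unpaired, and whether they pair was not tested. Within each genotype, the inflammatory monocyte list ranked the replicates alike in both media, and the interferon-stimulated list did not. Of the genes higher in TCM, 44 were also higher in RM, and of those lower in TCM, 48 were also lower. That is 8.37% and 13.7% of the TCM calls, and 50.6% and 84.2% of the RM calls. Among the others, 427 of 480 higher and 211 of 300 lower genes had the same sign in RM. The median RM difference was 0.332 over genes higher in TCM and −0.264 over genes lower in TCM. A call in TCM alone is therefore no sign that the media differ, which the interaction of genotype and medium tests.

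That test called 28 genes (0.144%), 25 of them also called in TCM, of which 10 were higher and 15 lower there. The 3 others were *Fn1*, *Kcnj10* and *Pdlim4*. The count depended on single arrays, at 51 without *Camkk2*-/- TCM replicate 4, 10 without WT RM replicate 4 or *Camkk2*-/- RM replicate 2, 12 without WT RM replicate 2, and 13 and 14 without *Camkk2*-/- TCM replicate 1 and WT TCM replicate 3. It was 15 and 17 without *Camkk2*-/- RM replicate 1 and 4, and 18 when WT TCM replicate 1 or either of *Camkk2*-/- TCM replicates 2 and 3 was left out. *Cxcl11* had a difference between the media of 5.43 (adjusted p = 0.000357), with means below background in every group but *Camkk2*-/- TCM-BMDM, so that the size is read from background. *Gbp8* (1.77, adjusted p = 0.0415) and *Parp10* (1.43, adjusted p = 0.025) also passed. *Gclm* was the glutathione gene that passed, at −1.51 (adjusted p = 0.00908), with means of 13.93 in WT and 14.23 in *Camkk2*-/- cells in RM. *Txnrd1* lay just outside, at −1.41 (adjusted p = 0.0524).

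All genes named next passed that test. Several signaling genes were lower in *Camkk2*-/- cells in TCM and not called in RM. *Hvcn1*, the voltage-gated proton channel, was 10.30, 9.40, 8.87 and 8.73 in WT and 7.21, 7.78, 7.80 and 7.90 in *Camkk2*-/- TCM-BMDM. The groups did not overlap in TCM, where the difference was −1.65 (adjusted p = 0.00167), and it was 0.68 in RM (adjusted p = 0.54). *Prkcb*, protein kinase C beta, had −1.38 in TCM and −0.20 in RM, and the small GTPase gene *Rhob* −1.44 and 0.25. *P2ry1*, an ADP receptor, had −1.53 and 0.01, and *Itgax* −1.47 and 0.81. *Egr2* had −1.22 and 0.24, and *Mamdc2* −3.01 and −0.12. *Fcrls* had −1.78 and 0.74, *Man2a2* −0.75 and 0.55, *Nudt12* −1.19 and 0.33, and *Lrrc32* −0.90 and 0.99. *Fam20c*, a kinase of secreted proteins, was lower in both media, at −3.00 and −1.42.

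*Sort1*, the sorting receptor sortilin, was called in opposite directions, at −0.70 in TCM (adjusted p = 0.00754) and 0.98 in RM (adjusted p = 0.00106). It was 10.97 to 11.28 in WT and 10.26 to 10.43 in *Camkk2*-/- TCM-BMDM. *Gpc1* (−0.66 and 0.73), *Slc28a2b* (0.76 and −0.79) and *Akr1c18* (0.77 and −0.92, below background in all groups) were the other 3. Higher in TCM without a call in RM were *Sectm1a* (2.32 and −0.14), the retinoblastoma-family gene *Rbl1* (1.26 and −0.10), the selenoprotein gene *Selenow* (1.54 and −0.08), *Kcnab1* (1.54 and −0.20) and *BC147527* (2.57 and 0.61).

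**Figure D5:**
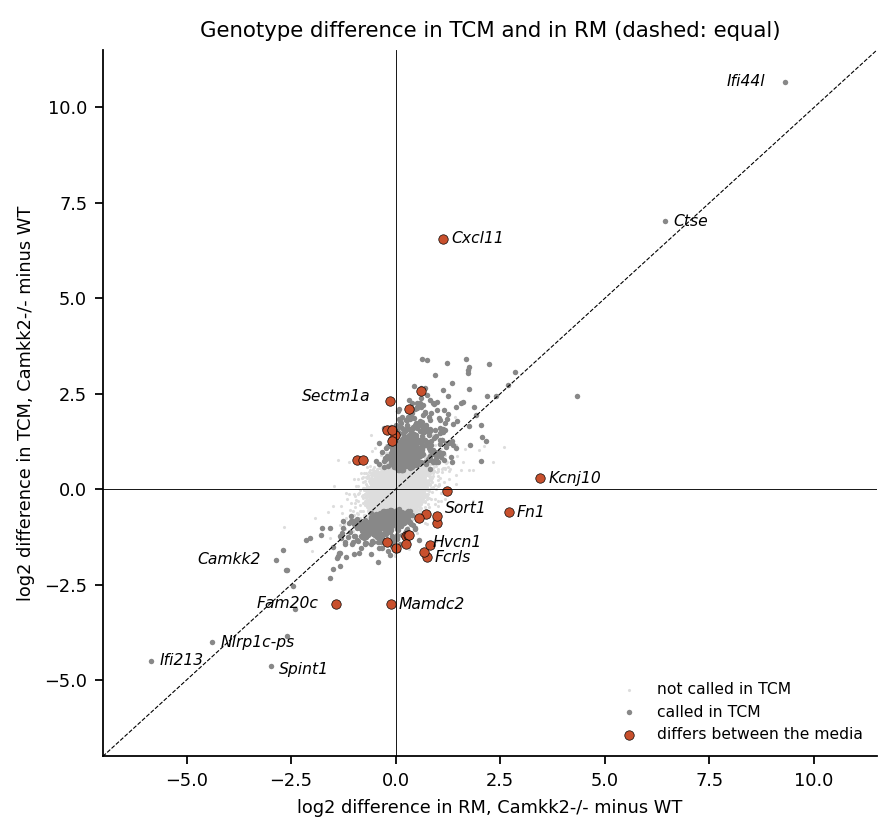
Genotype difference in TCM (y axis) against that in RM (x axis), log2, *Camkk2*-/- minus WT, for all genes, with equality dashed. The 28 genes that passed the test between the media are red, with *Cxcl11* at 6.56 against 1.13, while *Ifi44l*, *Ctse*, *Ifi213* and *Nlrp1c-ps* lie near the line.

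Genes next to *Camkk2* were read because a targeted allele carries its surroundings with it. Of 40 measured neighbors within 1 Mb in GRCm38.p6, 1 was higher and 2 lower in TCM. *Rnf34* was 11.68, 11.42, 10.74 and 11.07 in WT and 10.01, 9.73, 10.37 and 9.88 in *Camkk2*-/- cells, lower, at −1.23 (adjusted p = 0.0018), and at −1.33 in RM. *Clip1* was higher by 0.70 (adjusted p = 0.0163) and by 0.97 in RM. *Hvcn1*, described above, was the third. The purinergic receptor genes *P2rx4* (0.09) and *P2rx7* (−0.11) nearby did not pass.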

How the data were processed

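RNA of the 16 cultures was hybridized to Affymetrix mouse arrays. The deposited values were log2 signals per probe set, already normalized between arrays by the authors with software that the processing notes name as Affymetrix Expression Console. Its settings are not stated in the labels or methods. Saturation near the top of the scale and a floor of nonspecific signal shrink differences at both ends.

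Control probe sets and probe sets with 0 or several symbols were left out, and for 55 genes with several probe sets the one with the highest mean was kept. Groups came from the labels. A limma 3.58.1 model (R 4.3.3) with 4 group means was fitted to all 16 arrays, with Benjamini-Hochberg adjustment over 19505 genes, which gave 12 residual degrees of freedom. The test was checked on simulated data. Python 3.11.15 was used for summaries.

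Named genes were *Camkk2*, its neighbors, the 12 largest called differences without overlap in each direction, the 6 largest with 1 group below background, the leading called members of each list with those against its majority, commonly used polarization genes, markers, and genes called between media. A further 39 of 205 were chosen after their values were seen. The comparison, members and lists were chosen with earlier results of these data known. Alternatives changed the arrays fitted, variance model, normalization, filter, probe set rule, threshold and replicate block.

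Same-numbered arrays of the 2 genotypes in TCM deviated from their group means with correlations of −0.0107, −0.00895, −0.15 and 0.0587, so the numbers were not taken to pair them. Pairing of RM with TCM arrays of the same genotype was not tested.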

Additional observations from a re-analysis of the deposited data

Results flagged for a closer look

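In each TCM group of 4 arrays, an array was picked out where its gap to the nearest other was more of the group's range than Dixon's critical value allows. This held in 38 of 410 groups of the 205 named genes, and chance alone picks out about 1 in 20. WT TCM replicate 3 accounted for 17 of the 38. It was below the other WT arrays for the interferon-induced genes *Gbp3* (11.07), *Gbp4* (10.24), *Ifi213* (13.72), *Ifit1* (11.85), *Ifit1bl2* (6.46), *Irf1* (12.77), *Parp9* (10.63), *Rsad2* (13.24), *Stat2* (14.34), *Tgtp2* (11.60) and *H2-Q4* (12.03). It was also low for *Cd80* (10.61), *Cp* (8.22), *Mmp13* (11.27) and *Irgc1* (2.85), and high for *Cd9* (15.85) and *P2ry1* (7.36).

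WT TCM replicate 1 stood out for *Cd276* (9.29), *Hmox1* (16.51) and *Timp2* (14.23), replicate 2 for *Mid1ip1* (10.13), and replicate 4 was high for *Gbp8* (10.58) and *H2-T22* (13.31).

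Among *Camkk2*-/- TCM arrays, replicate 4 was low for *Cd40* (9.27), *Ifit1bl1* (16.25), *Isg20* (14.94) and *Trim30b* (10.47) and high for *Gas6* (10.74) and *Pdgfa* (7.68). Replicate 3 was high for *Ccl7* (11.40), *H2-Q4* (14.42) and *P2ry1* (5.63) and low for *Cd9* (14.26), *Fn1* (8.13) and *Sort1* (10.26). Replicate 1 stood out for *Atp6v1a* (13.72) and *Nedd4l* (10.10), and replicate 2 for *Gclc* (8.63).

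The genotype difference in TCM exceeded that in RM, by the interaction of genotype and medium in limma with adjusted p under 0.05, for *Cxcl11* (5.43), *Sectm1a* (2.46), *BC147527* (1.96), *Gbp8* (1.77), *Kcnab1* (1.74), *Akr1c18* (1.69), *Selenow* (1.62), *Slc28a2b* (1.56), *Parp10* (1.43) and *Rbl1* (1.36). It was below that in RM for *Fn1* (−3.30), *Kcnj10* (−3.17), *Mamdc2* (−2.90), *Fcrls* (−2.52), *Hvcn1* (−2.33), *Itgax* (−2.28), *Lrrc32* (−1.88), *Rhob* (−1.69) and *Sort1* (−1.68). The same was so for *Fam20c* (−1.57), *P2ry1* (−1.54), *Nudt12* (−1.52), *Gclm* (−1.51), *Egr2* (−1.46), *Gpc1* (−1.4), *Man2a2* (−1.30), *Pdlim4* (−1.27) and *Prkcb* (−1.18).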

How the results depend on the processing

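Counts of genes in TCM moved mainly with the threshold and with single arrays. At an adjusted p under 0.01 there were 265 higher and 167 lower genes, and 277 and 140 with a difference past 1 on the log2 scale. With a replicate block in the 8 TCM arrays alone there were 348 and 228, and 327 to 544 and 216 to 364 in fits without 1 array. The replicate block over 16 arrays gave 525 and 358, close to the 526 and 350 without it. That block ties same-numbered arrays across both genotypes, so it does not test pairing of RM with TCM within a genotype. Genes past a difference of 0.721 numbered 446 and 279, or 259 and 162 at 0.01 and 309 to 502 and 201 to 291 without 1 array. In RM, 87 and 57 became 47 and 33 at 0.01, and 53 to 109 higher without 1 array. The 28 genes differing between media became 44 with trended and robust variances, 7 at 0.01, and 10 to 51 without 1 array. Other normalizations, filters, weights and probe set rules left these counts within 1.5 times and turned no direction. Of 170 named genes that were called, 115 were called in every alternative run for single genes and 55 lost the call in at least 1, with 31 lost without WT TCM replicate 3, 36 without *Camkk2*-/- TCM replicate 3 and 36 with the replicate block in 8 arrays. The causes were not tested. Signals near background limit the size of differences, and 4 arrays per group limit the precision.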
